A study of Homo sapiens with 30 samples.

Results

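The mRNAs of 40 proteins of the core splicing machinery were followed through 30 RNA-seq libraries of eHAP FNLS cells. The genes were chosen by name and function, with earlier results of these data known. They make up 40 of the 61487 genes in the count table. They fall into 6 classes: 7 Sm core proteins (SNRPB, SNRPD1, SNRPD2, SNRPD3, SNRPE, SNRPF and SNRPG), 2 proteins specific to the U2 snRNP (SNRPA1 and SNRPB2), 3 SF3a subunits (SF3A1, SF3A2 and SF3A3), 7 LSm2-8 proteins (LSM2 to LSM8), 13 proteins of the U4/U6.U5 tri-snRNP or its assembly (the tri-snRNP class) and 8 proteins of the Prp19 complex and the catalytic spliceosome. All 40 are protein-coding, all were found by symbol, and all were expressed above the low-count filter, which left 31495 genes to be tested.

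The cells are a haploid human line that carries the cytosine base editor FNLS, and 5 genotypes were compared. Each was given pladienolide B (PB) at 2 nM, or its vehicle DMSO, for 3 h. PB inhibits splicing by binding the SF3b part of the U2 snRNP. Control cells had received a non-targeting sgRNA, and their 3 libraries per treatment are replicates of 1 line. The mutants were PHF5A 2xTL, which has a 6-nt insertion, SF3B1 T1080I, SUGP1 E554K and SUGP1 G603N, each as 3 monoclonal lines with 1 library per line and treatment. PHF5A and SF3B1 line the pocket that PB occupies, whereas SUGP1 is a separate factor that works with SF3B1. Spread within a mutant group is therefore spread between clones, and spread within control is spread between cultures.

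The Sm proteins form a ring around the U1, U2, U4 and U5 snRNAs, and the LSm2-8 proteins form the matching ring on the U6 snRNA. The U2 snRNP, to which SF3a and SF3b belong, pairs with the branch point of the intron. The tri-snRNP then brings in U4, U6 and U5, and after U4 has been unwound the Prp19 complex holds the catalytic RNA core in place. These proteins are needed for nearly all splicing, and their genes are expressed in every dividing cell.

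Promoter sequences were available from RefSeq (GRCh38.p14) for 36 of the 40 members. The stretches of 100 bases just upstream of the annotated starts are shown for 4 members that passed the test under PB and for LSM8, the member nearest to the threshold in control. They read 5′ to 3′ on the strand of the gene, and capitals mark a match to a motif on either strand.
SNRPB (chr20:2470854-2470953, minus strand): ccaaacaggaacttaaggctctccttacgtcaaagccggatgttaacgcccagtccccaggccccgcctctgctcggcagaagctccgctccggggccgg
SNRPD3 (chr22:24555403-24555502, plus strand): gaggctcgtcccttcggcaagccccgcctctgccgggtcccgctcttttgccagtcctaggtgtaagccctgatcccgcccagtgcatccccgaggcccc
CWC15 (chr11:94973613-94973712, minus strand): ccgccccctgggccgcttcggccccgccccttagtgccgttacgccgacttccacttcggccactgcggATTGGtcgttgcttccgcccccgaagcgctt
BCAS2 (chr1:114581640-114581739, minus strand): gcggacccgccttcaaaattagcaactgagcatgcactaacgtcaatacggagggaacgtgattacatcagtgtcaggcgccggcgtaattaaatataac
LSM8 (chr7:118183932-118184031, plus strand): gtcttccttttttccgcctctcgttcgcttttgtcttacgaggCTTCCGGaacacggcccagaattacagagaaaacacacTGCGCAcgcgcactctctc

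Motifs were searched on both strands of a window of 300 bases, 250 before and 50 after the start, and no motif searched contains another. The ETS core CCGGAAG stood in 18 of 36 member promoters, or 50%, against 10.3% of all 35116 RefSeq promoters. The NRF1 core TGCGCA stood in 9 members, or 25%, against 8.24% of all. The CCAAT box stood in 15 members, or 41.7%, against 34.6%. The E-box CACGTG was present in 1 member promoter, or 2.78%, against 7.26%. The TATA box TATAAA was present in 1 member promoter as well, that of CWC15, against 11.5% of all. The median number of CpG dinucleotides was 23 in the member windows and 14 over all promoters. LSM8 carried the ETS and NRF1 cores within the printed stretch, while the printed stretches of SNRPB, SNRPD3 and BCAS2 held none of the 5 motifs. The member shares count 1 promoter per gene, whereas the shares over all count every RefSeq promoter, whether or not its gene is expressed here. A match is a description of these letters only.

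Library totals ranged from 3.16e+07 to 7.50e+07 counts, and the 40 members took 0.651% to 0.772% of them. Mitochondrial genes took 10.1% to 17.9% of the counts, with the highest shares in line 3 of SUGP1 E554K. Processed pseudogenes took 1.22% to 2.42%. The mesenchymal markers VIM, FN1 and CDH2 stood at 188 to 409, 73.6 to 270 and 58.0 to 116 CPM (counts per 1e+06). COL1A1 and COL1A2 of the same list were lower, at 3.34 to 20.8 and 0.0240 to 1.23 CPM. Epithelial KRT18 (17.6 to 68.7 CPM) and KRT8 (0.548 to 85.4 CPM) and neural NES (31.4 to 148 CPM) were also present. The other epithelial and neural markers stood at or below 15.4 CPM. The 6 haematopoietic markers were each at or below 0.835 CPM although the parental line comes from a leukaemia. Because RNA was pooled from many cells, fewer cells with an mRNA and less mRNA per cell cannot be told apart. Nothing in the labels says which reads of overlapping genes were counted where, and 19 members overlap another tested gene, among them LSM3 (with XPC) and SNRPD3 (with GUCD1). SNRPB, CWC15, BCAS2, CDC5L, PLRG1 and LSM8 overlap none.

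Levels were compared between genes as CPM per kilobase of the gene length given in the table, with control cells in DMSO as the reference. SNRPD2, an Sm ring protein, was the highest member at 155 ± 36.9 CPM per kb (SD, n = 3), and LSM8, the LSm protein that distinguishes the nuclear ring from the cytoplasmic one, was the lowest at 4.23 ± 0.17. The LSM8 length in the table is 17309 bases, longer than its annotated span in GENCODE 29, so its level per length is uncertain. Within the Sm core SNRPB was lowest at 23.6 ± 0.39 CPM per kb. PRPF8, the large protein that cradles the catalytic core, stood at 112 ± 2.92. SART3, which helps U4 and U6 to anneal again, was lowest in the tri-snRNP class at 14.4 ± 1.29. SF3A2 (82.9 ± 14.2) exceeded SF3A1 (44.6 ± 2.45), SNRPB2 (35.3 ± 1.28) exceeded SNRPA1 (23.8 ± 2.69), and LSM4 led the LSm ring at 52.4 ± 9.87. In the Prp19 class the ubiquitin ligase PRPF19 was highest at 59.0 ± 7.29 and the scaffold protein PLRG1 lowest at 13.4 ± 0.90. Neighbours in this order often did not differ beyond their spread, as with PRPF6 (67.0 ± 10.5) and PRPF19. Reads of SNRPG and SNRPE are shared with many near-identical copies: 20 pseudogene entries held 13.8% to 19.8% of the summed SNRPG counts and 10 entries held 3.91% to 8.27% of those of SNRPE, so both levels are uncertain.

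**Figure D1:**
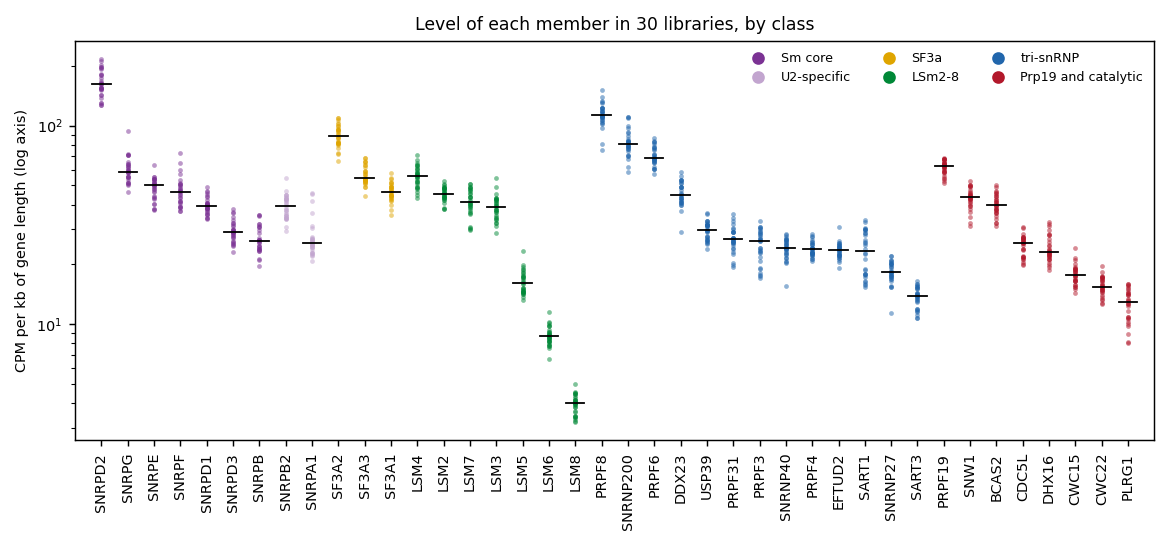
Level of each member in 30 libraries, in CPM per kilobase of gene length on a log axis, grouped and coloured by class. Each point is a library and each bar the median, and SNRPD2 and PRPF8 stand at the top while LSM8 and LSM6 stand at the bottom.

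Within a gene the levels moved little. The highest library exceeded the lowest by 1.33-fold for PRPF19 and 1.36-fold for PRPF4, at the stable end, and by 2.21-fold for SNRPA1 and 2.18-fold for SART1, at the other end. The median standard error of a member's log2 fold change between PB and DMSO was 0.13 in each genotype.

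Of the 40 members, a change under PB was called for 4 in SUGP1 E554K and 2 in SUGP1 G603N. It was called for 0 in control, PHF5A 2xTL and SF3B1 T1080I (edgeR, adjusted p under 0.05 over all tested genes). This fit did not pair the libraries of a clone. The 4 in SUGP1 E554K were all higher: the Sm genes SNRPB and SNRPD3, LSM3, and CWC15 of the Prp19 complex. In SUGP1 G603N SNRPB was higher and BCAS2, a Prp19 complex subunit, was lower. For comparison, 4.32% of all tested genes were called in SUGP1 E554K (1.02% higher, 3.30% lower), 4.08% in SUGP1 G603N (1.09% higher, 2.99% lower), 4.30% in control (0.987% higher, 3.31% lower), and 0.00318% in each of PHF5A 2xTL and SF3B1 T1080I. At an unadjusted p under 0.05 edgeR counted 8 members in control (13.8% of all tested genes), 0 in PHF5A 2xTL (1.29%), 0 in SF3B1 T1080I (0.883%), 17 in SUGP1 E554K (16.1%) and 6 in SUGP1 G603N (16.3%). In control and the pocket mutants, with adjustment, DESeq2 called 2 (6.14% of all tested genes), 0 (0.00318%) and 0 (0.00953%). In control LSM8 was nearest to the threshold in edgeR, with an adjusted p of 0.0596. DESeq2 called 10 members in SUGP1 E554K (7.01% of all tested genes) and 2 in SUGP1 G603N (5.78%).

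Replicate numbers pair PB with DMSO, since a number stands for 1 clone in the mutants, and a model with that block called more members. In SUGP1 E554K it called 12: all 7 Sm genes, SNRPB2, LSM3, CDC5L and CWC15 higher and PLRG1 lower, against 11.3% of all tested genes (3.13% higher, 8.18% lower). In control it called 3, against 9.34% of all tested genes (2.11% higher, 7.24% lower), with SNRPB higher and LSM8 and PLRG1 lower. In SUGP1 G603N it also called 3, against 9.25% (2.29% higher, 6.96% lower), with SNRPB higher and BCAS2 and PLRG1 lower. It called 0 members in PHF5A 2xTL and SF3B1 T1080I, where it called 0.00318% and 0.0159% of all tested genes.

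Without the block, the calls in the SUGP1 mutants rested on few libraries. In SUGP1 E554K no member was called without the DMSO library of line 1, where 1.99% of all tested genes were called. Without the DMSO library of line 2 (2.24% of all tested genes), the PB library of line 2 (2.22%) or the PB library of line 3 (2.58%), 1 member was called there, SNRPB. Without the PB library of line 1, 5 members were called (3.24%), and without the DMSO library of line 3, 9 were (5.78%). In SUGP1 G603N no member was called without the DMSO library of line 1 (2.00%), the DMSO library of line 2 (2.08%) or the PB library of line 3 (2.30%). There 1 member was called without the PB library of line 1 (BCAS2, 2.54%) or of line 2 (SNRPB, 2.49%), and 4 without the DMSO library of line 3 (7.92%). In both genotypes the share of all genes called was lower in the fits with 0 or 1 member called than in those with 4 or more. With both libraries of SUGP1 E554K line 3 left out, whose mitochondrial shares were the highest, 6 members were called in that genotype, with 3.17% of all tested genes.

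SNRPB encodes the B and B′ proteins of the Sm ring and lies at chr20:2461634-2470853 on the minus strand (GENCODE 29, hg38). In control its level was 120, 120 and 124 CPM in DMSO and 164, 148 and 153 CPM in PB. In SUGP1 E554K lines 1 to 3 it was 101, 135 and 128 CPM in DMSO and 181, 182 and 165 CPM in PB. In SUGP1 G603N it was 110, 122 and 127 CPM in DMSO and 160, 136 and 182 CPM in PB. In these 3 genotypes every PB library lay above every DMSO library. In PHF5A 2xTL the levels were 159, 126 and 137 CPM in DMSO and 159, 134 and 137 CPM in PB, and in SF3B1 T1080I they were 109, 124 and 131 and then 123, 136 and 139 CPM, so the groups overlapped in both pocket mutants. The log2 fold change was 0.54 ± 0.12 (SE) in SUGP1 E554K (edgeR, adjusted p = 0.00779), 0.41 ± 0.12 in SUGP1 G603N (adjusted p = 0.0488) and 0.35 ± 0.12 in control (adjusted p = 0.109, or 0.0181 with the block). It was 0.03 ± 0.12 in PHF5A 2xTL and 0.13 ± 0.12 in SF3B1 T1080I, neither called.

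SNRPD3, another Sm ring protein, had its estimates in the same order of genotypes. Its levels in SUGP1 E554K were 102, 101 and 114 CPM in DMSO and 127, 142 and 148 CPM in PB, with no overlap and a log2 fold change of 0.40 ± 0.11 (edgeR, adjusted p = 0.0267). In control they were 97.9, 111 and 103 CPM in DMSO and 117, 122 and 123 CPM in PB, also without overlap, with a log2 fold change of 0.22 ± 0.11 that was not called. In SUGP1 G603N line 2 was 131 CPM in DMSO and 126 CPM in PB, whereas lines 1 and 3 were higher in PB, and the log2 fold change of 0.27 ± 0.11 was not called. SF3B1 T1080I had a value of 0.18 ± 0.11 and PHF5A 2xTL one of 0.01 ± 0.11, again not called.

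The Sm core as a class had positive estimates for 7 of 7 genes in control, SF3B1 T1080I, SUGP1 E554K and SUGP1 G603N and for 4 of 7 in PHF5A 2xTL, and these counts were the same with DESeq2 size factors, without mitochondrial genes and with the block. The median log2 fold change was 0.40 in SUGP1 E554K, 0.22 in control, 0.19 in SUGP1 G603N, 0.15 in SF3B1 T1080I and 0.01 in PHF5A 2xTL, where the medians over all tested genes lay between -0.01 and 0.01. In PHF5A 2xTL the lowest member of the class was SNRPE (-0.14 ± 0.14), and in SF3B1 T1080I SNRPD1 stood at 0.15 ± 0.10. The summed level of the 7 genes in control was 885, 863 and 1011 CPM in DMSO and 1099, 1049 and 1130 CPM in PB. In SUGP1 E554K it was 868, 876 and 1088 CPM in DMSO and 1169, 1226 and 1335 CPM in PB. Every PB sum lay above every DMSO sum in both genotypes. In PHF5A 2xTL the sums were 1003, 977 and 1006 CPM in DMSO and 1030, 960 and 1016 CPM in PB, which overlap. The sums overlapped in SUGP1 G603N too, where line 2 had 988 CPM in DMSO and 953 CPM in PB. They also overlapped in SF3B1 T1080I, where line 1 in PB (877 CPM) lay below line 3 in DMSO (967 CPM). Of the 7 genes, 2 passed the test in SUGP1 E554K, 1 in SUGP1 G603N and 0 elsewhere.

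Among the U2-specific proteins, SNRPB2 (U2 B″) stood at 91.0, 95.8 and 89.3 CPM in control DMSO and at 116, 110 and 116 CPM in PB, with no overlap and a log2 fold change of 0.31 ± 0.14 that was not called. In SUGP1 E554K its value was 0.39 ± 0.14 (edgeR, adjusted p = 0.105, or 0.0229 with the block). SNRPA1 (U2 A′), its partner on the U2 snRNA, had 0.10 ± 0.22 in control and 0.15 ± 0.22 in SUGP1 E554K. The SF3a subunits, which bridge SF3b and the rest of the U2 snRNP, were called in no genotype, and their estimates lay between -0.20 for SF3A3 and 0.21 for SF3A2 over the 5 genotypes.

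LSM3, at chr3:14178358-14201119 on the plus strand, belongs to the nuclear and the cytoplasmic LSm rings. Its levels in SUGP1 E554K were 123, 96.9 and 137 CPM in DMSO and 151, 165 and 183 CPM in PB. All PB libraries were above all DMSO libraries, and the log2 fold change was 0.48 ± 0.14 (edgeR, adjusted p = 0.0410). In SUGP1 G603N the levels were 126, 142 and 105 CPM and then 143, 117 and 141 CPM, and the groups overlapped. LSM8 moved the other way in control, from 71.8, 76.6 and 71.3 CPM in DMSO to 55.6, 57.2 and 56.3 CPM in PB, with a log2 fold change of -0.38 ± 0.12 (edgeR, adjusted p = 0.0596, or 0.0139 with the block). It was -0.25 ± 0.11 in SUGP1 G603N and -0.15 ± 0.11 in SUGP1 E554K, and -0.05 ± 0.11 and 0.06 ± 0.11 in PHF5A 2xTL and SF3B1 T1080I, none of them called. LSM8 was thus lowest in the LSm class in control, where the other estimates ran from -0.12 for LSM6 to 0.21 for LSM3.

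The 13 tri-snRNP members had no call in any genotype. Their median log2 fold change was -0.11 in SUGP1 E554K, where 4 of 13 estimates were positive, and 0.04 in control, where 9 of 13 were. In SUGP1 E554K the lowest was SART3 (-0.31 ± 0.13) and the highest PRPF3 (0.20 ± 0.14), a U4/U6 protein. PRPF8 in SUGP1 E554K stood at 1474, 1385 and 856 CPM in DMSO and at 1398, 1175 and 913 CPM in PB, so that line 3 was lowest in both treatments. PRPF4, the partner of PRPF3, was lower in every PB library of control (99.8, 102 and 97.9 CPM) than in every DMSO library (111, 118 and 114 CPM), with a log2 fold change of -0.19 ± 0.09 that was not called. In PHF5A 2xTL its value was -0.10 ± 0.09. The helicase SNRNP200, which unwinds U4 from U6, and the GTPase EFTUD2 had -0.12 ± 0.17 and -0.17 ± 0.12 in SUGP1 E554K and 0.10 ± 0.17 and 0.04 ± 0.12 in control. DDX23, the helicase that helps to hand the 5′ splice site from U1 to U6, stood between -0.27 in SUGP1 G603N and 0.05 in SF3B1 T1080I.

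In the Prp19 class, CWC15, a small subunit found next to the catalytic core, stood in SUGP1 E554K at 42.2, 40.9 and 50.3 CPM in DMSO and at 52.0, 59.1 and 66.4 CPM in PB. The groups did not overlap, and the log2 fold change was 0.41 ± 0.12 (edgeR, adjusted p = 0.0393). It was 0.20 ± 0.12 in control, 0.10 ± 0.12 in SUGP1 G603N, 0.05 ± 0.12 in SF3B1 T1080I and -0.12 ± 0.12 in PHF5A 2xTL, not called. BCAS2, at chr1:114567557-114581639 on the minus strand, stood in SUGP1 G603N at 64.8, 63.1 and 50.2 CPM in DMSO and at 47.0, 40.01 and 41.7 CPM in PB. Its PB libraries were all lower, and it fell by 0.47 ± 0.12 on the log2 scale (edgeR, adjusted p = 0.0205). In control it went from 59.8, 53.3 and 54.1 CPM to 47.4, 46.5 and 41.8 CPM, and in SUGP1 E554K from 58.0, 57.1 and 50.9 CPM to 48.1, 48.7 and 43.5 CPM. There was no overlap in either genotype, but the log2 fold changes of -0.30 ± 0.12 and -0.24 ± 0.12 were not called. In SF3B1 T1080I the value was 0.10 ± 0.12.

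PLRG1, a WD40 protein of the same complex, had log2 fold changes of -0.36 ± 0.15 in control, -0.33 ± 0.15 in SUGP1 E554K and -0.36 ± 0.15 in SUGP1 G603N, and passed only with the block (adjusted p = 0.0148, 0.0229 and 0.0152), apart from the fit of SUGP1 G603N without the DMSO library of line 3 (-0.50, adjusted p = 0.0466). Its size depended on single libraries: in SUGP1 E554K it was -0.18 without the DMSO library of line 1 and -0.19 without the PB library of line 3, and in SUGP1 G603N -0.21 without the PB library of line 3. All 3 pairs were lower in PB in each of these genotypes and in PHF5A 2xTL, where the value was -0.14 ± 0.15. CDC5L, the Myb-like core subunit, had 0.25 ± 0.10 in control and 0.29 ± 0.10 in SUGP1 E554K, and the latter passed with the block (adjusted p = 0.0302). The helicase DHX16, the chromatin-linked coactivator SNW1 and PRPF19 lay between -0.19 and 0.06 in all 5 genotypes. The same complex therefore held genes with opposite signs, CDC5L and CWC15 above 0 and PLRG1 and BCAS2 below 0, in control and in both SUGP1 mutants.

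**Figure D2:**
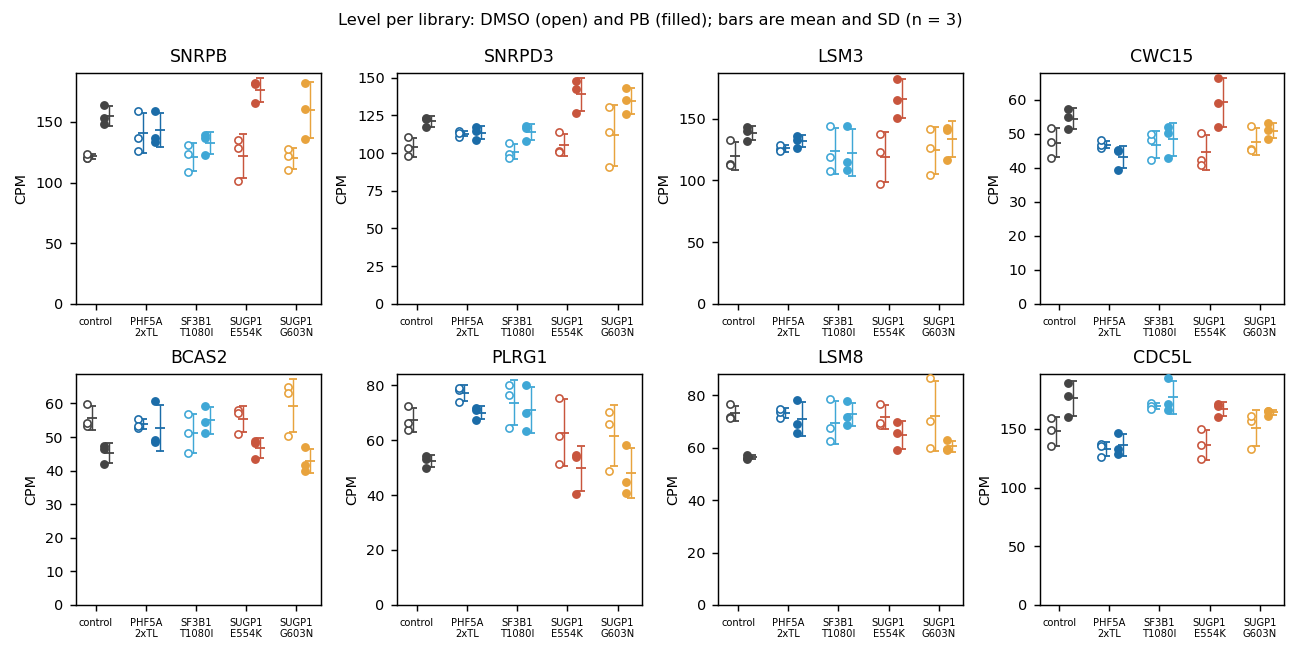
Level in CPM per library for 8 members, by genotype, with DMSO as open and PB as filled points and the mean and SD (n = 3) beside them. SNRPB in SUGP1 E554K lies at 101 to 135 CPM in DMSO and at 165 to 182 CPM in PB, and BCAS2 in SUGP1 G603N at 50.2 to 64.8 and 40.01 to 47.0 CPM.

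Counted without a model, 13 members had every PB library of control above every DMSO library, or 32.5%, where 11.0% of all tested genes and 12.2% of the 11999 genes of at least 4 CPM did. Another 8 members had every PB library below (20%, against 14.2% and 25.5%). In SUGP1 E554K the counts were 12 above (30%, against 7.54% and 9.72%) and 2 below (5%, against 10.1% and 16.1%). In SUGP1 G603N there were 2 above, against 5.80% of all tested genes, and 1 below, against 8.19%. SF3B1 T1080I had 1 above (SNRPD3, against 3.26%) and 0 below (against 4.49%). PHF5A 2xTL had 4 below (PRPF4, PLRG1, CWC15 and CWC22), which is 10% against 3.81%, and 0 above (against 4.26%). For SUGP1 G603N and the pocket mutants these shares are of all tested genes. They include genes below 4 CPM, and no share at a like level is given, so these counts cannot be read as an excess or a lack.

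The lines of a genotype differed among themselves. In SUGP1 G603N the median member changed by -0.05 in line 1, -0.12 in line 2 and 0.22 in line 3 on the log2 scale, and 16, 9 and 36 of 40 members were higher in PB. The 11999 expressed genes had medians of -0.17, -0.18 and 0.13 in the same lines. Processed pseudogenes went from 1.22% to 2.18% of counts in line 1 and from 1.37% to 2.23% in line 2. In line 3 they went from 2.30% to 1.60%. In SUGP1 E554K they went from 1.32% to 2.17%, 1.81% to 2.16% and 2.21% to 2.12% in lines 1 to 3. The DMSO libraries of line 1 in both SUGP1 mutants and of line 2 in SUGP1 G603N had the lowest shares of all libraries. The part of these shares in the calls and in the difference between lines was not tested. In SUGP1 E554K the member medians were 0.07, 0.19 and 0.10, and 7 of 7 Sm genes were higher in PB in each line. In control they were 0.17, 0.12 and -0.04, again with 7 of 7 Sm genes higher in each pair. SUGP1 G603N had 7, 2 and 7 Sm genes higher, SF3B1 T1080I 7, 7 and 4, and PHF5A 2xTL 5, 3 and 3.

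**Figure D3:**
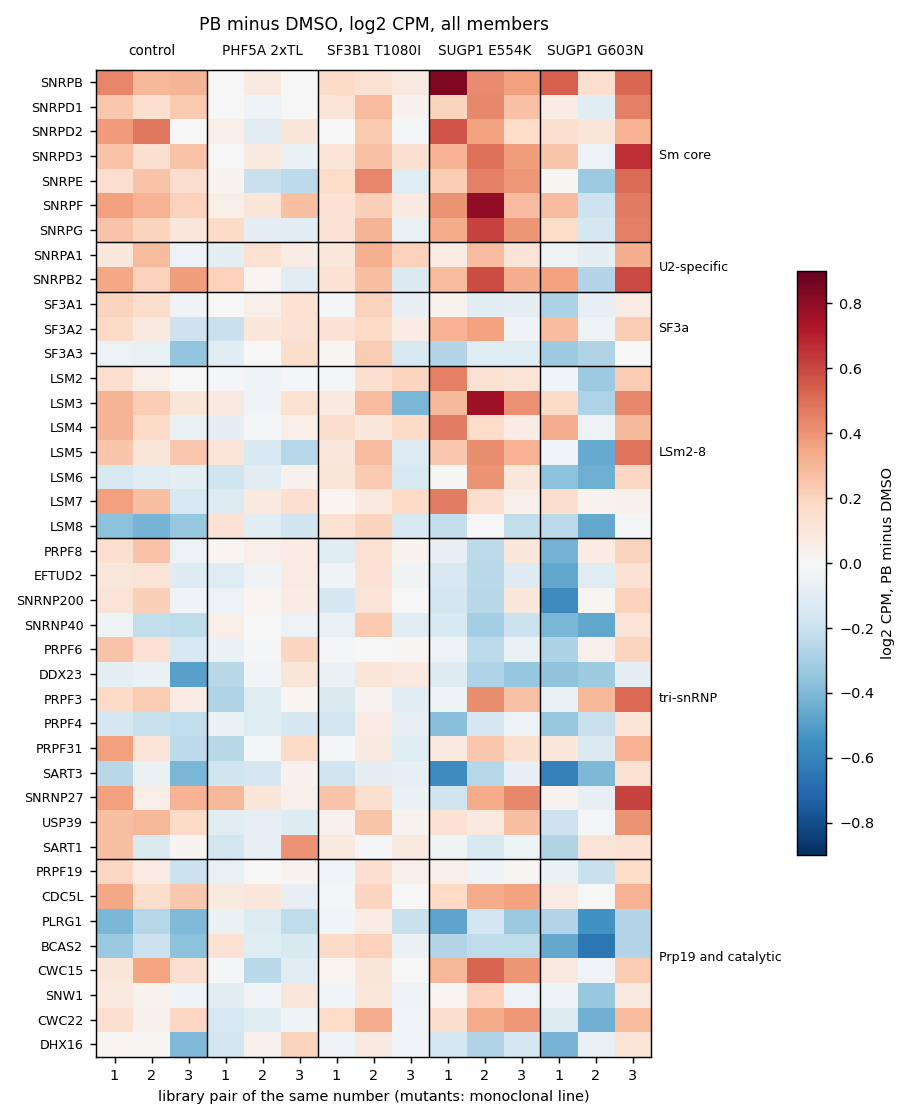
Log2 CPM in PB minus DMSO for each member (vertical axis, by class) and each same-numbered pair of libraries (horizontal axis, 3 per genotype), with red for higher and blue for lower in PB. The Sm rows are red in all 3 pairs of control and SUGP1 E554K, and SUGP1 G603N line 3 differs from lines 1 and 2.

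Across the 40 members, the log2 fold changes of control and SUGP1 E554K, which share no library, correlated with r = 0.840 (rho 0.852), those of control and SUGP1 G603N with r = 0.866, and those of the SUGP1 mutants with r = 0.844. For PHF5A 2xTL against the other 4 genotypes r lay between 0.166 and 0.363, and for SF3B1 T1080I against control and the SUGP1 mutants between 0.443 and 0.576. These values are across genes, which are not independent replicates, and a gene's length and base composition are the same in every library.

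The difference in response itself passed for 0 of 40 members in each mutant against control (edgeR), and for 0 with DESeq2. Of all tested genes 0.260%, 0.286%, 0% and 0% were called by edgeR in PHF5A 2xTL, SF3B1 T1080I, SUGP1 E554K and SUGP1 G603N. At an unadjusted p under 0.05 there were 0, 2, 0 and 0 members, against 6.21%, 6.69%, 2.04% and 2.77% of all tested genes. In the SUGP1 E554K difference the lowest p belonged to LSM6 (0.29 ± 0.19), LSM8 (0.23 ± 0.16) and LSM3 (0.27 ± 0.19), and in the SUGP1 G603N difference to CWC22 (-0.22 ± 0.15), EFTUD2 (-0.20 ± 0.17) and SF3A1 (-0.21 ± 0.19). In PHF5A 2xTL they were LSM8 (0.33 ± 0.16), the U4/U6.U5 factor USP39 (-0.35 ± 0.18) and CWC15 (-0.32 ± 0.16). For LSM8 the response in SF3B1 T1080I minus that in control was 0.44 ± 0.16 on the log2 scale (adjusted p = 0.441), and for BCAS2 it was 0.40 ± 0.17 (adjusted p = 0.581). When the mean response of both SUGP1 mutants was set against that of both pocket mutants, again 0 members passed, with 1.87% of all tested genes called. At an unadjusted p under 0.05 there were 5 members, against 11.8% of all tested genes. BCAS2 had -0.39 ± 0.12 (adjusted p = 0.0906) and SNRPB 0.40 ± 0.12 (adjusted p = 0.0938). Both passed with the block (adjusted p = 0.0146 and 0.0110, with 5.95% of all genes called) and with DESeq2 (3.30%), and they were the only members that did in either model. That SNRPB was called in the SUGP1 mutants and not in the other genotypes does not show that its response differed from control, where the test of the difference gave 0.18 ± 0.17 for SUGP1 E554K.

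The members' response also varied with exon number, taken as the largest number of exons in an annotated transcript. In SUGP1 E554K the 10 members of 1 to 5 exons had a median log2 fold change of 0.33, the 11 of 6 to 10 exons 0.22, the 15 of 11 to 20 exons -0.05 and the 4 with 21 or more -0.12. The medians of all expressed protein-coding genes in the same bins were 0.07, 0.00, -0.14 and -0.27. The correlation of log2 fold change with exon number was rho = -0.60 over the members and -0.35 over 10605 expressed protein-coding genes in SUGP1 E554K. It was -0.36 and -0.26 in control, -0.39 and -0.29 in SUGP1 G603N, -0.51 and -0.25 in SF3B1 T1080I, and 0.04 and -0.11 in PHF5A 2xTL. Exon number goes with class, since each Sm gene has 8 exons or fewer while PRPF8, SNRNP200, EFTUD2 and PRPF6 have 43, 45, 28 and 21, so the separate parts of both were not tested.

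**Figure D4:**
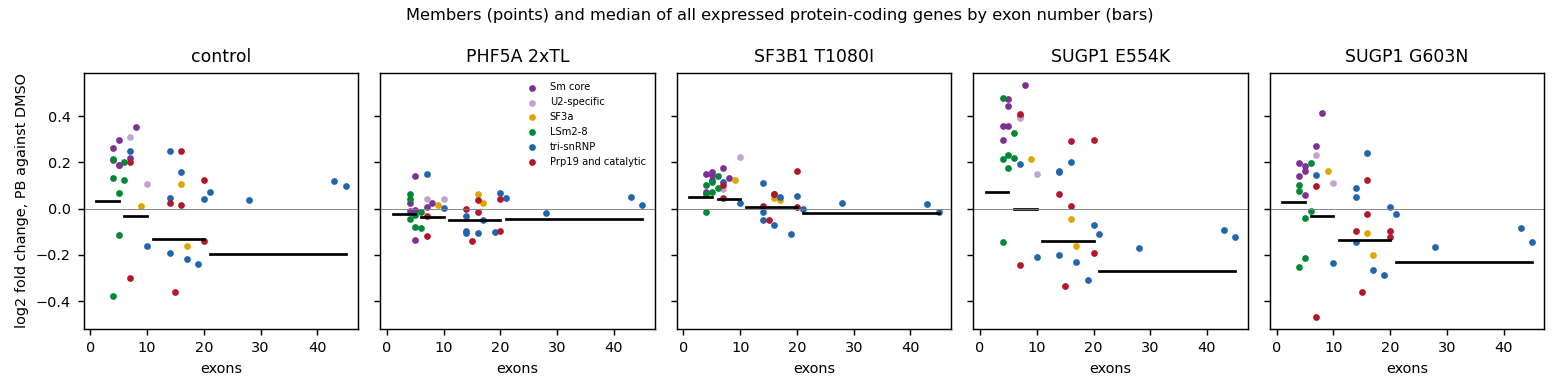
Log2 fold change of PB against DMSO (vertical axis) by number of exons (horizontal axis) in the 5 genotypes. Points are the members, coloured by class, and black bars are the medians of expressed protein-coding genes, which in SUGP1 E554K go from 0.07 at 1 to 5 exons to -0.27 at 21 or more.

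Without PB, no member differed between a mutant and control at the threshold (edgeR), and DESeq2 called 0 as well. At an unadjusted p under 0.05 there were 2 members in PHF5A 2xTL (4.48% of all tested genes), 2 in SF3B1 T1080I (3.62%), 0 in SUGP1 E554K (3.85%) and 0 in SUGP1 G603N (5.23%). The share of all tested genes called after adjustment was 0.00953% for PHF5A 2xTL, 0% for SF3B1 T1080I and SUGP1 E554K and 0.00635% for SUGP1 G603N. SART1, a protein of the tri-snRNP needed for its recruitment, stood at 85.5, 114 and 136 CPM in control. The PHF5A 2xTL lines had 80.8, 79.7 and 73.4 CPM and the SF3B1 T1080I lines 70.3, 82.1 and 82.2 CPM. All 6 libraries of the pocket mutants lay below the control libraries, but control itself spread widely, and the log2 differences of -0.52 ± 0.15 in both were not called (edgeR, adjusted p = 0.727 and 0.578). Both comparisons use the same control libraries. In PB the SART1 levels were 72.0, 75.7 and 97.5 CPM in PHF5A 2xTL, 74.9, 81.7 and 87.2 CPM in SF3B1 T1080I and 103, 104 and 139 CPM in control.

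PRPF3 stood at 113, 92.6 and 102 CPM in SF3B1 T1080I and at 128, 130 and 142 CPM in control, without overlap, and the log2 difference of -0.38 ± 0.14 was not called. CWC22, which links the spliceosome to the exon junction complex, had 49.5, 51.3 and 47.2 CPM in control and 58.5, 60.0 and 58.3 CPM in the PHF5A 2xTL lines (0.26 ± 0.11, not called). The U5 protein PRPF6 and SART1 had 0.18 ± 0.12 and 0.20 ± 0.15 in SUGP1 E554K, and EFTUD2 and SART1 0.14 ± 0.12 and 0.29 ± 0.15 in SUGP1 G603N, none called. Counts of members whose groups did not overlap were 8 above and 2 below in PHF5A 2xTL (6.37% and 6.32% of all tested genes), 2 above and 3 below in SF3B1 T1080I (6.87% and 5.17%), 1 above and 0 below in SUGP1 E554K (3.91% and 4.26%), and 0 above and 0 below in SUGP1 G603N (3.90% and 3.80%). These shares include low-count genes, and no share at a like level is given.

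SNRPA1 had its highest levels in line 3 of both SUGP1 mutants. In SUGP1 E554K the levels were 89.5, 91.6 and 153 CPM in DMSO and 94.2, 111 and 165 CPM in PB, and in SUGP1 G603N they were 99.7, 89.7 and 133 CPM and then 96.5, 84.8 and 167 CPM. The highest of the other libraries stood at 115 CPM. The gene lies at chr15:101281510-101295282, near the end of chromosome 15, and the 20 expressed genes within 5 Mb had medians of 0.49 and 0.56 above control on the log2 scale in SUGP1 E554K line 3 (DMSO and PB) and of 0.56 and 0.82 in SUGP1 G603N line 3. In lines 1 and 2 of these mutants the medians lay between -0.12 and 0.08. The neighbours were higher along with SNRPA1 in both lines numbered 3, and DNA copy number was not tested. The log2 differences from control in DMSO, 0.35 ± 0.22 and 0.30 ± 0.22, were not called. The 168 expressed neighbours of SART1 had medians between -0.03 and 0.08 in the DMSO libraries of the pocket mutants, and the 115 neighbours of PRPF3 in SF3B1 T1080I between -0.04 and 0.03.

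**Figure D5:**
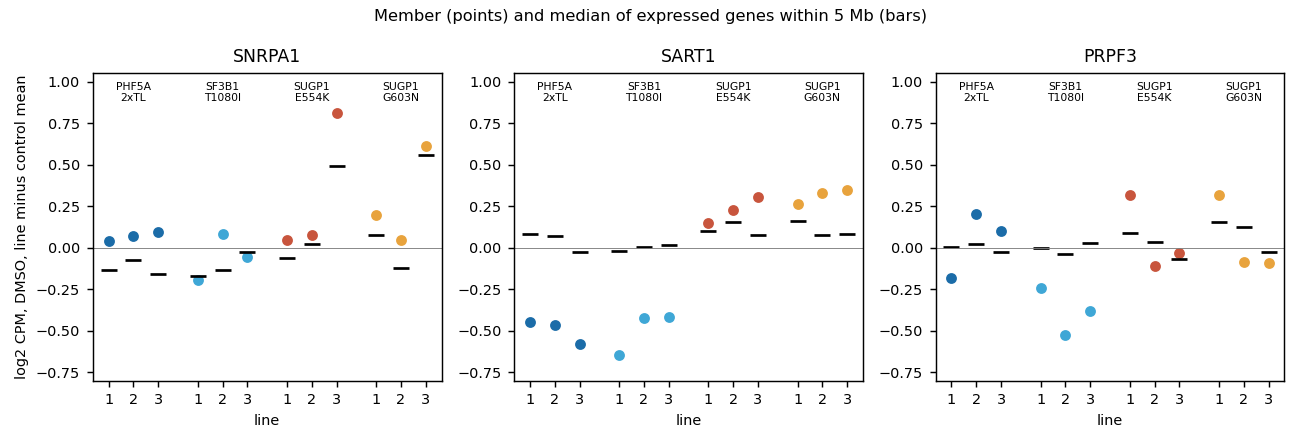
Log2 CPM in DMSO minus the control mean for SNRPA1, SART1 and PRPF3 (points) and the median of expressed genes within 5 Mb (bars), for each mutant line. SNRPA1 and its neighbours are both raised in line 3 of the SUGP1 mutants, whereas SART1 in the pocket mutants and PRPF3 in SF3B1 T1080I lie below 0 with neighbours between -0.04 and 0.08.

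Among 102 other splicing genes in 9 lists, PB changed 10 in control (4 higher, 6 lower), 12 in SUGP1 E554K (7 higher, 5 lower), 7 in SUGP1 G603N (3 higher, 4 lower) and 1 in each pocket mutant. Of all tested genes, 0.987% were called higher and 3.31% lower in control, and 1.02% and 3.30% in SUGP1 E554K. The shares were 1.09% and 2.99% in SUGP1 G603N, and 0.00318% were called in each pocket mutant. With the block, control had 10 higher and 9 lower, SUGP1 E554K 19 and 9, and SUGP1 G603N 7 and 7. The block called 2.11% of all tested genes higher and 7.24% lower in control. It called 3.13% and 8.18% in SUGP1 E554K and 2.29% and 6.96% in SUGP1 G603N. PRPF39, a U1 snRNP factor, was higher by 0.87 ± 0.11 on the log2 scale in control, 0.98 ± 0.11 in SUGP1 E554K and 0.75 ± 0.11 in SUGP1 G603N (edgeR, adjusted p = 1.86e-05, 3.39e-06 and 0.000164). SNRPA, the U1 A protein, was higher by 0.34 ± 0.10 in control and 0.38 ± 0.10 in SUGP1 E554K. SMN1 and SMN2, which load the Sm ring onto snRNAs, were higher in control and both SUGP1 mutants by 0.34 to 0.43. They are near-identical copies whose reads cannot be told apart. Both enter the counts above in each of these genotypes, though they may reflect 1 signal. Of the U2 recruitment list, 4 of 15 were lower in control and in SUGP1 E554K and 3 in SUGP1 G603N. Among them in control were the helicase DDX42 (-0.78 ± 0.11), SF1 (-0.56 ± 0.11) and U2SURP (-0.57 ± 0.12). These 3 were also called lower in both SUGP1 mutants. In the list of other Prp19-related, second-step and release factors, CDC40 was lower in PHF5A 2xTL (-0.80 ± 0.13, adjusted p = 0.0446) and SF3B1 T1080I (-0.87 ± 0.13, adjusted p = 0.00979), where it was the only gene of all those tested that was called, and in control (-0.45 ± 0.13, adjusted p = 0.0411). BUD31 was higher in SUGP1 E554K (0.44 ± 0.12), as was the tri-snRNP factor PRPF38B (0.47 ± 0.12), and LSM14B, a cytoplasmic LSm-domain protein, was lower in control (-0.76 ± 0.14) and both SUGP1 mutants. Without PB, SUGP1 itself stood at 89.1 ± 5.63 CPM (SD, n = 3) in SUGP1 G603N and at 47.7 ± 12.5 CPM in control. Its log2 difference of 0.90 ± 0.13 was called (edgeR, adjusted p = 0.00580), with 0.00635% of all tested genes. It was not called with the block, which here pairs clones with control cultures by number only. No other listed gene was called between a mutant and control in DMSO. No gene of the SF3b, minor spliceosome or exon junction complex lists was called without the block. With the block 1 of 7 SF3b genes was called in control and 2 in SUGP1 E554K, and 1 of 8 minor spliceosome genes and 1 of 5 exon junction complex genes in SUGP1 E554K, all higher. The difference in response from control was called (edgeR) for DDX42 in PHF5A 2xTL (0.68 ± 0.15) and SF3B1 T1080I (0.74 ± 0.15). No other listed gene passed in a mutant against control. Between the SUGP1 and the pocket mutants, PRPF39 (0.46 ± 0.11), PRPF38B (0.51 ± 0.12), DDX42 (-0.65 ± 0.10) and U2SURP (-0.48 ± 0.12) were called. The shares of all tested genes called were 0.260%, 0.286% and 1.87%.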

How the data were processed

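Polyadenylated RNA was made into CORALL libraries and sequenced in paired-end mode, per the labels' protocols. UMI-tools, STAR and SAMtools 1.10 with hg38 are named in the submitters' processing notes. For the counting program, its annotation and its strand setting nothing is given in the sources used. The authors deposited 1 table of estimated counts per gene, not normalized, and 65.5% of its nonzero entries are fractional. It also has a gene length column in bases, per the file headers. Of the identifiers, 58312 were found in GENCODE 29. Totals of 3.16e+07 to 7.50e+07 counts per library limit the precision, and fold changes also carry the spread between cultures or clones.

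Values were rounded to whole numbers and genes filtered with filterByExpr over the 10 groups. All 30 libraries entered 1 fit, with 1 coefficient per group, in edgeR 4.0.16 (R 4.3.3), TMM scaling and the quasi-likelihood F test. For each of 14 comparisons p was adjusted over all 31495 tested genes (Benjamini-Hochberg), and a gene was called under 0.05. CPM are per 1e+06 counts of the TMM-scaled library, changes per line add 0.5 CPM before the log, and standard errors are the fold change divided by the square root of F. The procedure was run on simulated counts, with changes larger than those of the members and without pairing by clone. That run cannot show the power or error for the calls given here. The members, the lists and the rule for named genes were chosen with earlier results of these data known. The rule names members that were called, the 3 of lowest p where fewer than 3 were called, and the highest and lowest per class in level per kb, and 2 called genes per other list and direction. Members outside this rule were picked with their values in view.

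Per the labels, a DMSO and a PB library of 1 number share a clone in the mutants. The deviations of same-numbered libraries from their group means correlated with 0.215 to 0.446 in control and 0.413 to 0.826 in the mutants over 11999 genes, and a fit with the number as a block was made. Alternatives were DESeq2 1.42.0, its size factors, no filter, only the groups compared, no mitochondrial genes, members summed with their pseudogenes and each library left out. Promoter letters come from RefSeq.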

Additional observations from a re-analysis of the deposited data

How the results depend on the processing

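The number of members called in control was 0 and became 3 with only the compared groups in the fit (9.91% of the genes tested in that fit were called), 3 with the replicate block (9.34%) and 2 with DESeq2 (6.14%). In SUGP1 E554K it was 4 and became 1 without the low-count filter (1.61%), 0 with only the compared groups (0.321%), 12 with the block (11.3%) and 10 with DESeq2 (7.01%). In SUGP1 G603N it was 2 and became 0 without the filter (1.32%) and 0 with only the compared groups (0.00416%). For both SUGP1 mutants against both pocket mutants it was 0 and became 2 with the block (5.95%) and 2 with DESeq2 (3.30%). Leaving out 1 library gave 0 to 9 calls in SUGP1 E554K, 0 to 4 in SUGP1 G603N and 0 to 1 for the SUGP1 against the pocket mutants, and 0 in the other comparisons. The fits without a library were filtered anew. The block changed no member call in the other comparisons. Between a mutant and control it paired clones with control cultures by number only, in a refit of those groups alone. The labels name no such pairing, so that fit is no check there. Of 330 alternative values for 20 pairs of a member and a comparison, 259 kept their direction and side of the threshold, 39 passed it newly, 32 lost it and 0 changed sign. The 20 pairs were those called by edgeR with or without the block, and the alternatives reuse most of the same libraries. The lack of sign changes is therefore no independent check. Rounding ties to the even number and leaving out both libraries of SUGP1 E554K line 3 were chosen after seeing the data, and gave 5 and 6 calls in SUGP1 E554K. The cause of these differences was not tested, except that the fit without the filter adjusts over 57619 genes and a fit of only the compared groups has 6 libraries. With 3 libraries per group and a median standard error of 0.13, small changes cannot be told from no change.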
